A study of Mus musculus with 4 samples.

Results

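Lipoprotein lipase (Lpl), the genes for its folding, its anchoring, lipoprotein binding and fatty acid uptake, and its angiopoietin-like relatives were followed across polyadenylated RNA of cultured fibro-adipogenic progenitors (FAPs), the mesenchymal cells of skeletal muscle that can turn into fibroblasts or fat cells. The group held 9 of the 28649 genes in the count table: Lpl, Gpihbp1, Lmf1, Vldlr, Cd36, Angptl1, Angptl2, Angptl4 and Angptl7. They were found by gene name. The list of names had been selected on the levels in these same libraries, with the knockout against wild-type fold changes known, so the values of the members in that contrast are a description and test nothing.

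The libraries were 2 from cells of the miR-206 knockout (KO) genotype, whose strain background and allele the labels do not give, and 2 from wild-type C57Bl/6 cells. In both genotypes the cells were sorted from muscle as Sca1+ FAPs, grown in medium with 20% fetal bovine serum, 10% horse serum and 5 ng/ml FGF, and then held for 48 hours in DMEM with 10% horse serum. The labels do not tell whether the replicates of a genotype are separate animals, cultures or repeat preparations. Error bars and p-values therefore rest on the spread between libraries, 2 per genotype, which may be technical. The p-values and standard errors of the tests also draw on the spread of the other tested genes.

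LPL is the enzyme that releases fatty acids from the triglyceride of lipoproteins. LMF1 helps it fold in the endoplasmic reticulum, GPIHBP1 of capillary endothelium carries it to the vessel surface, VLDLR binds triglyceride-rich particles, and CD36 takes up the fatty acids. ANGPTL4 is a secreted inhibitor of LPL, whereas ANGPTL1, ANGPTL2 and ANGPTL7 share its domain plan and are known for roles in vessel growth, inflammation and the matrix of the eye rather than for LPL inhibition. Fat cells make LPL and CD36 in quantity, and both genes are PPAR targets.

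The deleted microRNA is shown because its seed defines the sites searched in the members. The mature sequence from RefSeq (GRCm38.p6, chr1:20679055-20679076, plus strand) is printed with bases 2 to 8, the seed, in capitals.
mmu-miR-206-3p: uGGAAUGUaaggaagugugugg
Matches to this seed, as the 8mer ACATTCCA or the 7mers ACATTCC and CATTCCA, numbered 0 in the 3′ UTRs of the 9 members, taking for each gene its longest annotated one, from 362 bases in Lmf1 to 5091 in Vldlr. Of all 21028 genes whose 3′ UTR is annotated, 3562 (16.9%) had a match, and the median UTR length was 961 bases. The absence of these letters from 1 annotated UTR per gene says nothing of sites elsewhere. Mir206 was not analysed here, and no level of the deleted gene stands beside the genotype labels.

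Total estimated counts ran from 30550235 to 44561117 per library. FAP markers were abundant in all 4 libraries: all 7 (Pdgfra, Ly6a, Cd34, Dcn, Lum, Col1a1 and Pdgfrb) passed the low-count filter, and their summed level was 6700 and 6587 TPM (a level scaled for depth and transcript length) in KO and 6071 and 7161 TPM in wild type. The sums hide shifts in both directions. Of the 7 FAP markers, 3 (Pdgfra, Dcn and Lum) were higher in both KO libraries than in both wild-type libraries, against 23.9% of all tested genes. Ly6a was lower in both KO libraries, against 24.4%, and Cd34, Col1a1 and Pdgfrb overlapped. Markers of other cells were present too. The 7 adipocyte markers summed to 48.5 and 22.7 TPM in KO against 307 and 120 TPM in wild type, the 8 muscle lineage markers to 1033 and 123 against 1949 and 1143 TPM, and the 8 endothelial markers to between 17.5 and 20.1 TPM throughout. The 7 macrophage markers summed to between 7.27 and 9.25 TPM, with Adgre1 and Tyrobp at 0 in every library. Between the genotypes, edgeR's quasi-likelihood test called 62 of 14507 tested genes (0.427%) at a Benjamini-Hochberg adjusted p under 0.05, with 35 higher in KO (0.241%) and 27 lower (0.186%). It called 0 of the 7 FAP markers, while 4 had an unadjusted edgeR p under 0.05, against 14.3% of all tested genes. DESeq2 called 4 of the 7, against 4.79%. The log2 fold changes, KO over wild type, were 0.38 for Pdgfra, 0.49 for Dcn, 0.42 for Lum and -0.61 for Ly6a.

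The members spanned a wide range of levels. Lpl had the highest TPM of the 9 in each library, with a mean over the 4 of 770 TPM and a range of 468 to 1026. Angptl7 followed at 365 TPM (266 to 522), Angptl4 at 328 TPM (274 to 385) and Angptl2 at 264 TPM (250 to 283). RNA of the lipase and of 3 angiopoietin-like genes was thus abundant in these cells. Vldlr at 28.9 TPM (25.8 to 32.3) and Lmf1 at 28.3 TPM (26.6 to 32.1) formed a middle tier. Angptl1 at 11.2 TPM (5.11 to 16.8) and Cd36 at 8.91 TPM (1.71 to 20.9) were lower, and Gpihbp1 was near 0. Neighbours in this order were not all separated: Angptl7 and Angptl4 changed places between replicates, whereas Angptl4 lay above Angptl2 in all 4 libraries. Lmf1 lay above Vldlr in both KO libraries (27.4 and 32.1 against 25.8 and 30.7 TPM). It lay below Vldlr in both wild-type libraries (26.6 and 27.2 against 26.9 and 32.3 TPM). Only the gap in wild-type replicate 2 was larger than the SD of Vldlr, which was 3.48 TPM in KO and 3.80 TPM in wild type. Angptl1 and Cd36 changed places with genotype, Angptl1 being above Cd36 in both KO libraries and Cd36 above Angptl1 in both wild-type libraries.

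**Figure D1:**
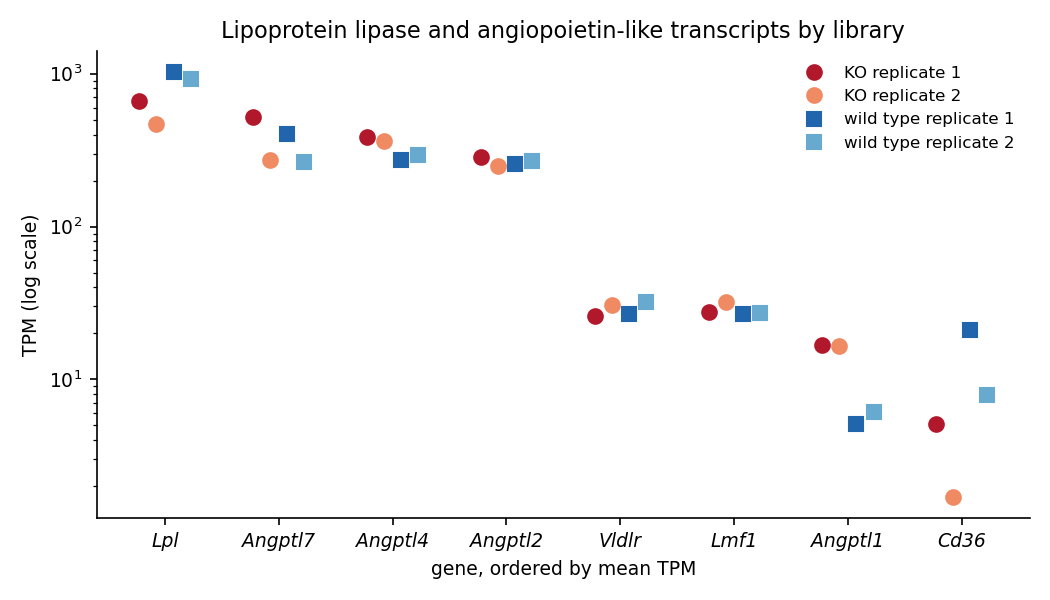
Level of 8 of the 9 members in each library, in TPM on a log axis, with 1 point per library coloured by genotype and replicate. Gpihbp1 is left out because it was at 0 in 2 libraries. Lpl lies at the top in every library, Cd36 spreads from 1.71 to 20.9 TPM, and the KO points of Angptl1 stand clear above those of wild type.

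Of the 9 members, 8 passed the low-count filter and Gpihbp1 did not. Angptl1 was the 1 member of 8 past the adjusted p of 0.05, where 0.427% of all tested genes were. The KO and wild-type libraries did not overlap for 4 of the 8, against 48.3% of all tested genes. In Lpl and Cd36 both KO libraries lay below both wild-type libraries, which was so for 24.4% of all tested genes. In Angptl1 and Angptl4 both KO libraries lay above both, as for 23.9%. DESeq2, run on the same counts, put 3 members past the threshold (Lpl, Angptl1 and Angptl4), where 4.79% of all tested genes passed. Since the members were picked with these values known, nothing is read from these shares.

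The lipase itself was lower in the KO libraries, though not past edgeR's threshold (edgeR adjusted p = 0.197). Lpl (ENSMUSG00000015568, chromosome 8 from 68880491 to 68907448, plus strand, GRCm38) had 1398 and 979 CPM (counts scaled to library size, without correction for gene length) in KO and 2138 and 1865 CPM in wild type. The lowest wild-type library was above the highest KO library, and KO replicate 2 was the lowest of the 4. The means were 1189 ± 296 CPM (SD, n = 2) in KO and 2002 ± 193 CPM (SD, n = 2) in wild type, a level 1.68-fold higher in wild type and a log2 fold change, KO over wild type, of -0.75 (SE 0.19). The summed level of the adipocyte markers had the same order of libraries as Lpl, and so did that of the muscle lineage markers. Of the 7 tested muscle lineage markers, 4 were lower in both KO libraries than in both wild-type libraries, against 24.4% of all tested genes, and 3 overlapped. Of these 7, 0 passed edgeR's test and 0 had an unadjusted edgeR p under 0.05, against 14.3% of all tested genes. DESeq2 called 0, against 4.79%. In a culture of mixed cells, fewer cells of a type and less RNA per cell cannot be told apart. Lpl was well above the adipocyte markers in every library: its TPM was 13.7 and 20.6 times their sum in KO and 3.34 and 7.65 times in wild type. The part of adipocytes or muscle cells in the Lpl difference was not tested.

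Of the genes for the folding and anchoring of LPL, Lmf1 overlapped between genotypes and Gpihbp1 was too low to compare. Lmf1 (chromosome 17 from 25579085 to 25662826) stood at 28.5 and 32.4 CPM in KO and 28.1 and 28.8 CPM in wild type. KO replicate 1 fell between the wild-type libraries, and the log2 fold change was 0.10 (SE 0.10). Gpihbp1, which encodes the endothelial anchor (chromosome 15 from 75596628 to 75599481), had 2 and 0 estimated counts in KO and 1 and 0 in wild type. No library reached 3 counts, the floor used here, which corresponds to between 0.0671 and 0.0982 CPM depending on the library, so no difference was detectable at this depth. The 8 endothelial markers were low in these same libraries, as given above.

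The receptor and the fatty acid transporter differed from each other. Vldlr (chromosome 19 from 27216484 to 27254231) had 66.9 and 75.4 CPM in KO and 68.5 and 77.6 CPM in wild type. The libraries interleaved, and the log2 fold change was -0.04 (SE 0.10). Cd36 (ENSMUSG00000002944, chromosome 5 from 17781690 to 17888801, minus strand) had 11.0 and 3.54 CPM in KO and 43.9 and 16.4 CPM in wild type, which is 379, 108, 1565 and 731 estimated counts. Both KO libraries were below both wild-type libraries, yet the replicates of a genotype were far apart: replicate 1 was 3.10 times replicate 2 in KO and 2.68 times in wild type. The means were 7.25 ± 5.26 CPM (SD, n = 2) in KO and 30.1 ± 19.5 CPM (SD, n = 2) in wild type, a log2 fold change of -2.05 (SE 0.98), and Cd36 was not past the threshold. Replicate 1 exceeded replicate 2 in both genotypes for 3 of the 8 tested members (Lpl, Cd36 and Angptl7), against 28.2% of all tested genes, and did so by over 1.5 times for Cd36 and Angptl7, against 3.68% of all tested genes.

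Cd36 moved with the adipocyte markers from library to library. Of the 7 adipocyte markers (Adipoq, Plin1, Cidec, Lep, Cfd, Retn and Plin4), 6 were tested, all 6 were lower in both KO libraries than in both wild-type libraries (24.4% of all tested genes), and 1 (Cidec) passed the threshold as lower in KO (0.186% of all tested genes). The median log2 fold change over the 6 was -2.57. An unadjusted edgeR p under 0.05 was reached by 3 of the 6, against 14.3% of all tested genes. DESeq2 called 4, against 4.79%. Lep was near 0. The TPM of Cd36 was 0.106 and 0.0754 of the summed adipocyte marker TPM in KO and 0.0681 and 0.0656 in wild type, while its own level ran from 1.71 to 20.9 TPM. Lpl had the same order of libraries as Cd36 and the adipocyte sum, with ratios to that sum spread more widely, as given above. The muscle lineage sum, 1033 and 123 TPM in KO and 1949 and 1143 TPM in wild type, had this order of libraries too. The order is therefore not particular to adipocyte markers. The part of adipocytes or muscle cells in the Cd36 difference was not tested.

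**Figure D2:**
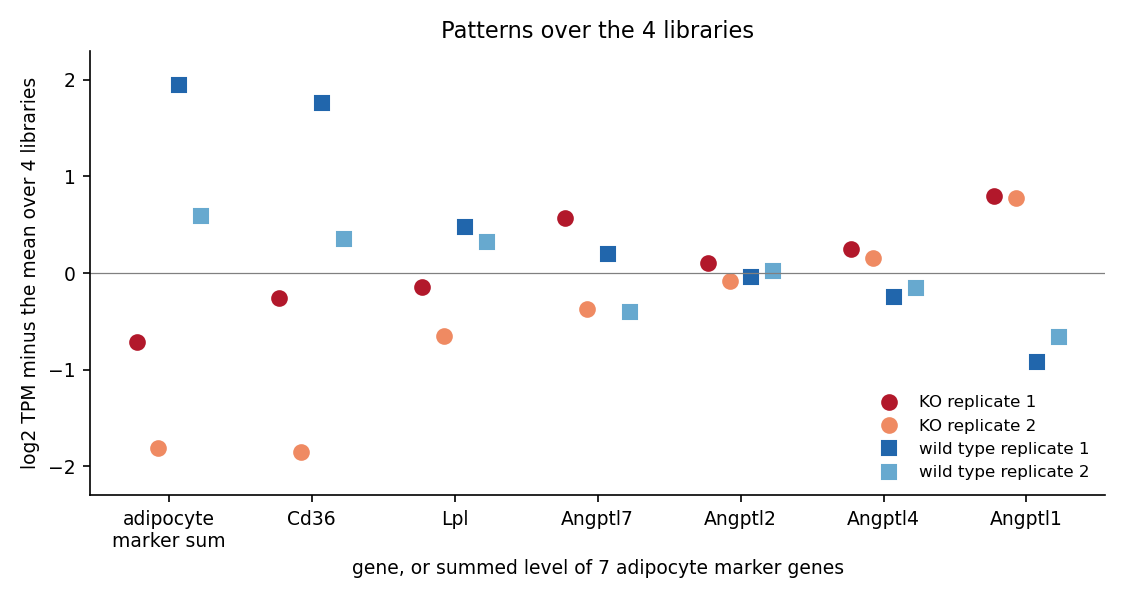
Level of 6 members and of the summed adipocyte markers in each library, as log2 TPM minus the mean over the 4 libraries, with circles for KO and squares for wild type. Cd36, Lpl and the adipocyte sum share one order of libraries, Angptl7 separates by replicate rather than by genotype, and Angptl1 is high in both KO libraries. The summed muscle lineage markers, not drawn, had the same order of libraries as Cd36.

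The secreted LPL inhibitor was higher in the KO libraries. Angptl4 (ENSMUSG00000002289, chromosome 17 from 33773750 to 33781830, minus strand) had 462 and 424 CPM in KO and 329 and 340 CPM in wild type. The groups did not overlap and the replicates were close. The means were 443 ± 27.2 CPM (SD, n = 2) in KO and 334 ± 7.93 CPM (SD, n = 2) in wild type, a level 1.32-fold higher in KO and a log2 fold change of 0.41 (SE 0.08), which was not past edgeR's threshold. Inhibitor and lipase thus differed in opposite directions. The ratio of Angptl4 to Lpl in TPM was 0.578 and 0.772 in KO and 0.267 and 0.318 in wild type. Its separation by genotype follows from that of the 2 genes and adds no evidence. The ratio compares RNA levels, and LPL activity was not measured.

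Angptl1 had the largest log2 fold change above 0 among the 8 tested members. Angptl1 (ENSMUSG00000033544, chromosome 1 from 156838562 to 156861078, plus strand) encodes a secreted protein known for inhibiting vessel growth. It had 23.9 and 22.4 CPM in KO and 7.46 and 8.04 CPM in wild type, from 825, 684, 266 and 359 estimated counts. Every KO library was far above every wild-type library and replicates lay close together. The means were 23.1 ± 1.05 CPM (SD, n = 2) and 7.75 ± 0.413 CPM (SD, n = 2), a 2.98-fold higher level in KO that corresponds to 1.58 on the log2 scale (SE 0.12), with a Benjamini-Hochberg adjusted p of 0.0116 in edgeR. Leaving out KO replicate 1 ended the call (edgeR adjusted p = 0.0949, log2 fold change 1.53), and so did leaving out KO replicate 2 (edgeR adjusted p = 0.0822, log2 fold change 1.63). The adjusted p over the 4 fits that each left out 1 library ran from 0.0297 to 0.0949, and the log2 fold change from 1.52 to 1.63. Measured against Cd36, the TPM of Angptl1 was 3.27 and 9.69 times as high in KO and 0.244 and 0.777 times as high in wild type. The separation of this ratio follows from the opposite directions of the 2 genes and adds no evidence.

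The other 2 angiopoietin-like members, both abundant, overlapped between genotypes. Angptl2 (chromosome 2 from 33216069 to 33247717), whose product promotes inflammation in fat tissue, had 572 and 489 CPM in KO and 512 and 531 CPM in wild type, with a log2 fold change of 0.03 (SE 0.10). Its wild-type values lay inside the KO range. Angptl7 (chromosome 4 from 148495183 to 148500460), best known from the cornea and trabecular meshwork, had 668 and 337 CPM in KO and 507 and 333 CPM in wild type. It was high in replicate 1 and low in replicate 2 of both genotypes, by 1.98 times in KO and 1.52 times in wild type, and its log2 fold change was 0.26 (SE 0.50). Angptl1, Angptl2 and Angptl7 each lie inside a gene of the opposite strand, namely Ralgps2, Ralgps1 and Mtor. They share 0 exonic bases with those genes, whose log2 fold changes were -0.32, 0.07 and 0.04. Angptl1 shares 465 of its 2841 exonic bases with an unnamed transcript of the opposite strand, Gm37802, which was not analysed here. The library kit kept the strand, but whether the counting used it is not given in the sources used here.

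**Figure D3:**
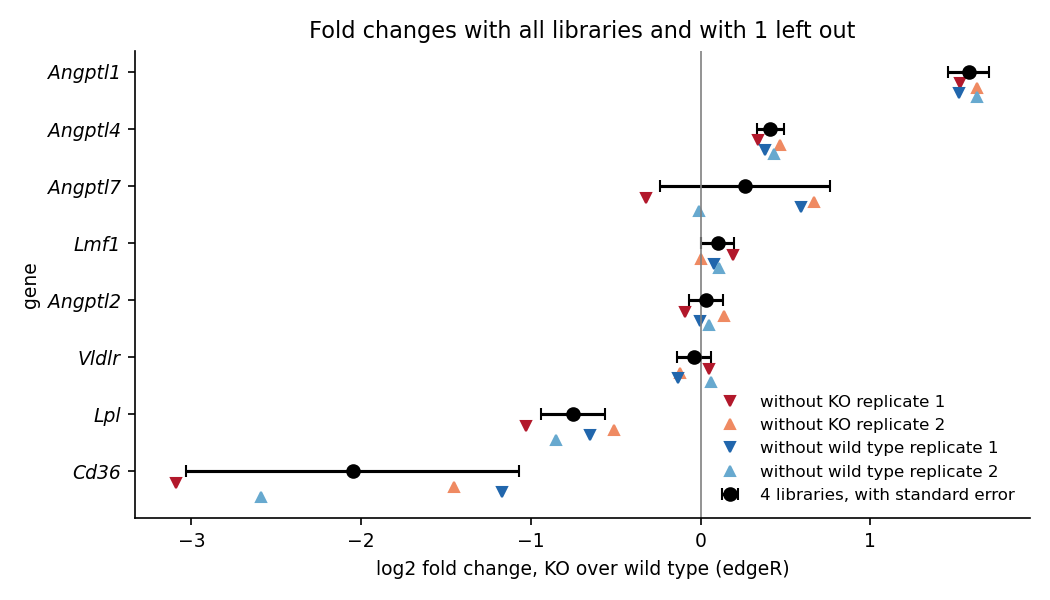
Log2 fold change of the 8 tested members, KO over wild type, from edgeR, with bars of 1 standard error and small markers for the fits that left out 1 library each. Angptl1 stays between 1.52 and 1.63 in those fits, Cd36 ranges from -3.09 to -1.17, and Angptl7, Angptl2 and Vldlr lie on both sides of 0.

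The authors' deposited table of genotype means held 8 of the 9 members, all but Gpihbp1. In the authors' deposited table the log2 difference of mean TPM was -0.78 for Lpl, -2.07 for Cd36, 1.57 for Angptl1 and 0.40 for Angptl4. Those of Lmf1, Vldlr, Angptl2 and Angptl7 in the authors' deposited table were 0.14, -0.07, 0.02 and 0.25.

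Promoters are shown for Angptl1 and Cd36, the tested members with the largest log2 fold changes above and below 0. Each run is from RefSeq (GRCm38.p6) and spans 250 bases before to 50 after a start, 5′ to 3′ on the strand of the gene, with matched motifs in capitals. That of Angptl1 is chr1:156838773-156839072, plus strand, and that of Cd36 is chr5:17835847-17836146, minus strand. Both windows lie inside the annotated span of their gene, downstream of its outermost annotated start.
Angptl1 promoter: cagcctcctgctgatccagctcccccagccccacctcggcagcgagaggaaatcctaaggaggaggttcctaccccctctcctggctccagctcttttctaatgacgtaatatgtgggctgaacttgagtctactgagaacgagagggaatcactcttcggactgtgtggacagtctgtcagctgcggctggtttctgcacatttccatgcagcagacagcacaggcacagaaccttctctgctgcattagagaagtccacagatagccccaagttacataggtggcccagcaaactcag
Cd36 promoter: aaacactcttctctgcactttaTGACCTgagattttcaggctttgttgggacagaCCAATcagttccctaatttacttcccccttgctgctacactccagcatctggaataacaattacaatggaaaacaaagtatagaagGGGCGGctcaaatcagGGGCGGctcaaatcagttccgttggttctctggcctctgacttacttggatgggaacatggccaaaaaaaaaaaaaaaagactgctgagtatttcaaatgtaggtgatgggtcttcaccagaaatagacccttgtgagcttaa
Motifs were searched on both strands. The Cd36 window held 1 CCAAT, 2 copies of GGGCGG and 1 AGGTCA, a hexamer bound by nuclear receptors, here on the opposite strand. Among 32851 promoters of the same length, 37.4% held CCAAT, 35.7% GGGCGG and 16.3% AGGTCA. The direct repeat bound by PPAR with RXR, searched only as AGGTCANAGGTCA, was in neither window and in 0.0396% of all promoters. Neither window held TATAAA (13.6% of promoters) or CACGTG (7.15%), and the Angptl1 window held none of the 6 motifs. A match is a run of letters and shows no binding. RefSeq windows were matched for 6 of the 9 members.

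Genes around these members were grouped in lists. The 7 lists of pathway genes had been chosen with earlier results of these libraries known, and their directions are no independent evidence. Outside the 9 members they named 128 genes, of which 113 were tested. Their median log2 fold change was -0.07, beside a median of -0.00 over all 14507 tested genes. edgeR called 1 as higher in KO, against 0.241% of all tested genes, and 1 as lower, against 0.186%. The 2 were Sgk1 and Plin2. DESeq2 called 21 of the 113, with 6 higher and 15 lower, against 4.79% of all tested genes. An unadjusted p under 0.05 was reached by 34 of the 113 genes, against 14.3% of all tested genes.

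For the maturation, transport and cleavage of LPL, 20 of 21 genes were tested, 0 passed in either direction, and the median log2 fold change was 0.06. Single genes ran from -1.17 to 1.52, with 8 below 0 and 12 above. At an unadjusted p under 0.05 in edgeR there were 4 of the 20, against 14.3% of all tested genes. DESeq2 called 4, with 3 higher and 1 lower, against 4.79%. Of the 2 most abundant, Calr, a folding chaperone, had a log2 fold change of 0.23 (SE 0.14) and Hspg2, which encodes the heparan sulfate proteoglycan perlecan, -0.05 (SE 0.10). For lipases and apolipoproteins, 10 of 16 were tested, 0 passed, the median was -0.81, and both KO libraries were below both wild-type libraries in 8 of the 10, Lpl among them, against 24.4% of all tested genes. edgeR gave 6 of the 10 an unadjusted p under 0.05, against 14.3% of all tested genes. DESeq2 called 3, against 4.79%. Apoe, the most abundant apolipoprotein of the list and a ligand of lipoprotein receptors, had 325 and 208 CPM in KO and 541 and 451 CPM in wild type (log2 fold change -0.90, SE 0.27). Its libraries followed the order of Lpl. Apoc2, the activator of LPL, was not tested, and Apoc3 and Apoa5 were at 0 in all 4 libraries. For lipoprotein receptors, 15 of 17 were tested, 0 passed and the median was 0.06. Of these 15, 3 had an unadjusted edgeR p under 0.05, against 14.3% of all tested genes. DESeq2 called 0, against 4.79%. The log2 fold changes of the endocytic receptor gene Lrp1 and the Wnt co-receptor gene Lrp6 were -0.06 (SE 0.09) and 0.20 (SE 0.07).

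For fatty acid uptake and activation, 21 of 22 were tested, 0 passed and the median was -0.23. Both KO libraries were below both wild-type libraries in 13 of the 21, Cd36 among them, against 24.4% of all tested genes. An unadjusted edgeR p under 0.05 was reached by 8 of the 21, against 14.3% of all tested genes. DESeq2 called 7, against 4.79%. The caveola genes Ptrf (also called Cavin1) and Cav1 had log2 fold changes of -0.17 (SE 0.07) and -0.12 (SE 0.09). For the angiopoietin family and its receptors, 14 of 18 were tested and the median was 0.18. The 1 that passed was Angptl1, higher in KO, against 0.241% of all tested genes. Of the 14, 2 had an unadjusted edgeR p under 0.05, against 14.3% of all tested genes. DESeq2 called 2, against 4.79%. Angptl8, a relative that also takes part in LPL inhibition, had between 0.533 and 0.949 CPM, values looked up after the list was run. The integrin gene Itgb1 had a log2 fold change of 0.02 (SE 0.08).

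Among PPAR receptors and shared PPAR targets, 25 of 26 were tested and the median was -0.21. edgeR called 1 as lower in KO, against 0.186% of all tested genes, and 0 as higher. The log2 fold change was below 0 for 21 of the 25 and above 0 for 4. In 14 of the 25 both KO libraries were below both wild-type libraries, against 24.4% of all tested genes. In edgeR 9 had an unadjusted p under 0.05, against 14.3%, and DESeq2 called 5, against 4.79%. Plin2, which coats lipid droplets, had 114 and 113 CPM in KO and 175 and 169 CPM in wild type. Its libraries did not overlap, and it fell by 0.60 on the log2 scale (SE 0.07, edgeR adjusted p = 0.0307). Cpt1a, which encodes the carnitine acyltransferase of mitochondrial fatty acid entry, had a log2 fold change of 0.15 (SE 0.10). Among hypoxia and glucocorticoid targets, settings known to induce Angptl4, all 17 were tested and the median was 0.01. edgeR called 1 as higher in KO, against 0.241% of all tested genes, and 0 as lower. Of the 17, 5 had an unadjusted edgeR p under 0.05, against 14.3% of all tested genes. DESeq2 called 3, with 2 higher and 1 lower, against 4.79%. Sgk1, a kinase gene induced by glucocorticoids, had 164 and 172 CPM in KO and 113 and 102 CPM in wild type (log2 fold change 0.64, SE 0.08, edgeR adjusted p = 0.0424). The glycolysis genes Ldha and Pgk1 had log2 fold changes of 0.01 (SE 0.08) and 0.14 (SE 0.08). Over the fits without 1 library each, the median of PPAR targets ran from -0.24 to -0.09, being -0.12 without KO replicate 2 and -0.09 without wild-type replicate 1. That of hypoxia and glucocorticoid targets ran from -0.04 to 0.11, that of lipoprotein receptors from -0.06 to 0.03, and that of the angiopoietin family from 0.08 (without wild-type replicate 2) to 0.19. Each fit without 1 library lost the calls of Plin2 (edgeR adjusted p from 0.073 to 0.146) and Sgk1 (edgeR adjusted p from 0.0542 to 0.169).

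**Figure D4:**
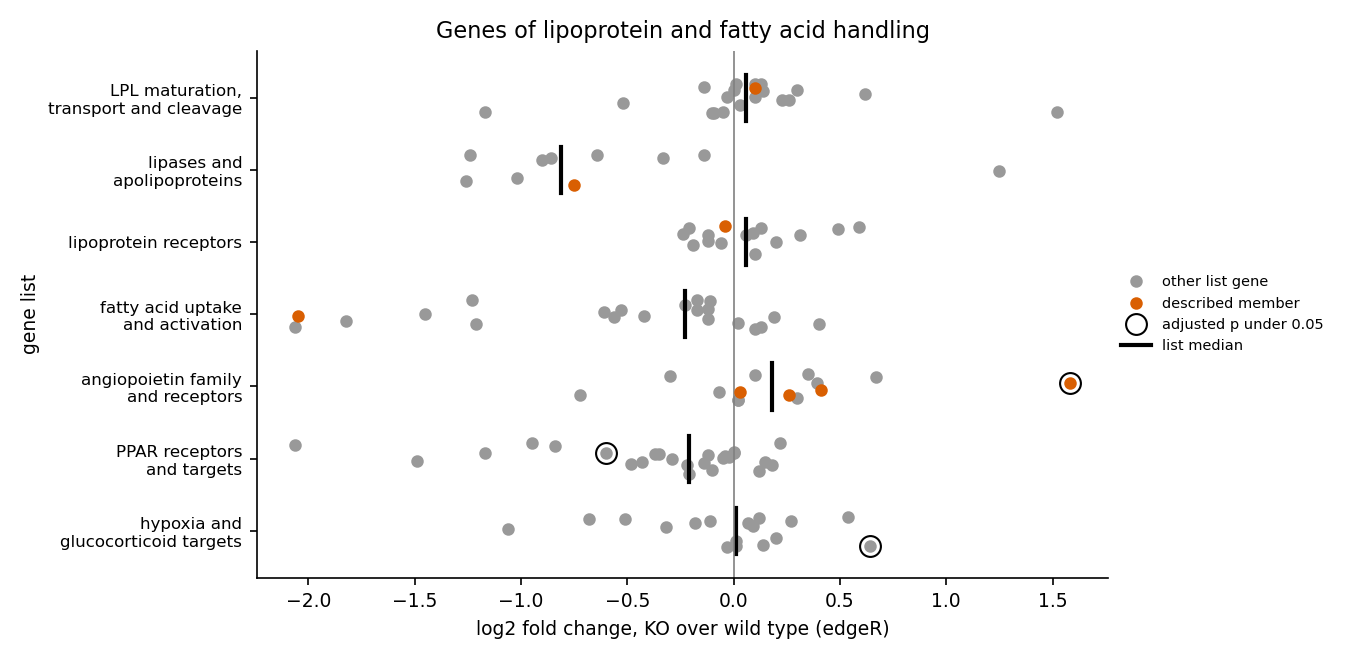
Log2 fold change, KO over wild type, of the tested genes of 7 lists, with 1 point per gene, members in orange, a bar at each list's median and a ring around genes of adjusted p under 0.05. The median of lipases and apolipoproteins is -0.81, those of the other lists lie between -0.23 and 0.18, and the 3 ringed genes are Angptl1, Plin2 and Sgk1.

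The genes whose pattern over the 4 libraries was most like that of 4 members were found among 10559 tested genes of mean CPM at least 5, by the Euclidean distance between centred log2 CPM. The distances rest on 4 libraries and are a description. Lpl was nearest to Enpp2 (distance 0.0501), which encodes the lysophospholipase autotaxin, then to Rassf3 (0.0800) and Rin3 (0.0803). Angptl4 was nearest to Ccdc80 (0.0261), Adck4 (0.0345) and Ier5l (0.0366). Vldlr was nearest to Pgls (0.0136), Nub1 (0.0194) and Arpin (0.0234). Angptl1 had no neighbour as close, with Fetub at 0.150, Kcnma1 at 0.168 and Lrrc8e at 0.198. None of the other 8 members was among these 12 genes.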

How the data were processed

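RNA libraries of KO and wild-type FAPs were analysed, 2 of each genotype, with 30550235 to 44561117 estimated counts per library. Per the submitters' processing notes, FastQC and kallisto were used with mm10. For tool versions, annotation, strand setting and the summing of transcripts to genes, nothing is given in the sources used here. The authors deposited estimated counts per gene, not normalized, and TPM, scaled for depth and transcript length. The authors also deposited, for 12078 genes, mean TPM by genotype with its log2 and the log2 difference. kallisto shares out reads that match several transcripts, so similar genes can exchange reads.

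Names that a spreadsheet had converted to dates (27 genes) were recovered from the transcript identifier. Estimated counts were rounded and tested in R 4.3.3 with edgeR 4.0.16 (TMM, filterByExpr, robust quasi-likelihood F-test, two-sided, Benjamini-Hochberg over 14507 genes, threshold 0.05). The standard error is the log2 fold change over the square root of F. Only this edgeR fit of all 4 libraries was tested on simulated data, drawn with dispersions estimated from these libraries. Alternatives were DESeq2 1.42.0, limma 3.58.1 (voom, and trend on log2(TPM + 1)), other scaling and filters, a replicate block, and leaving out each library. Coordinates and 3′ UTRs are from GENCODE M21 (GRCm38), counted from 1.

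Members and gene lists were chosen with earlier results of these data known. The genes named are the 9 members, each list's called genes (at most 4) and its 2 of highest mean CPM, and for 4 members the 3 nearest patterns (log2 CPM, prior count 2, names of the Gm or Rik kind left out). No other columns of sample values were present. Mir206 was not analysed here.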

Additional observations from a re-analysis of the deposited data

How the results depend on the processing

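With 2 libraries per genotype, precision is limited, and a fit that leaves out 1 library assumes that the lone sample of its genotype varies like the others. Fold changes of the members kept their direction and side of the threshold in 97 of 112 alternative values. The number of genes called, 62, became 695 with DESeq2, 14 with limma-voom, 133 with library size alone, 491 with no low-count filter, 11 with no robust estimation, 7 with limma-trend on log2(TPM + 1), and 7 to 77 without 1 library each. Lpl (log2 fold change -0.75) passed the threshold with DESeq2 (-0.75); it ranged from -1.03 to -0.51 without 1 library each. Angptl4 passed with DESeq2 (0.41) and with no low-count filter (0.40), and ranged from 0.34 to 0.47. Angptl1 did not pass with limma-trend (1.42) and ranged from 1.52 to 1.63. Angptl2 changed sign with library size alone (-0.01), without KO replicate 1 (-0.09) and without wild-type replicate 1 (-0.0010), within a range of -0.09 to 0.14. Vldlr changed sign without KO replicate 1 (0.05) and without wild-type replicate 2 (0.06), in a range of -0.13 to 0.06, and Angptl7 without KO replicate 1 (-0.32) and without wild-type replicate 2 (-0.01), in a range of -0.32 to 0.67. Cd36 ranged from -3.09 to -1.17 and Lmf1 from 0.0029 to 0.19. The cause of these shifts was not tested, beyond the smaller number of samples where a library was left out.

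Replicate numbers 1 and 2 recur in both genotypes, but with 2 pairs and no label saying what a number marks they do not pair the samples. The difference between replicates 1 and 2 correlated at 0.187 between genotypes over 14507 genes. With the replicate block, 265 genes were called, and Lpl (-0.77) and Cd36 (-2.09) passed the threshold. Under the block the counts of called genes became 1 of 20 for LPL maturation, 4 of 10 for lipases and apolipoproteins and 2 of 21 for fatty acid uptake. They became 3 of 25 for PPAR targets and 2 of 17 for hypoxia and glucocorticoid targets. Over all 14507 tested genes the count under the block was 265, against 62 without it.

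The counts of called list genes moved as follows, while those over all tested genes moved too. The latter were 62 of 14507 in the main fit, 695 with DESeq2, 133 with library size alone and 491 of 19942 with no low-count filter. Nothing about the lists is read from these shifts. LPL maturation (0) became 4 with DESeq2, 2 with library size alone and 2 with no low-count filter, and 0 to 2 without 1 library each. Lipases and apolipoproteins (0) became 3, 1 and 1 under the same settings and 0 to 1 without 1 library. Fatty acid uptake (0) became 7 with DESeq2, 4 with no filter and 0 to 1 without 1 library. The angiopoietin family (1) became 2 with DESeq2, 2 with no filter, 0 with limma-trend and 0 to 1 without 1 library. PPAR targets (1) became 5 with DESeq2, 2 with library size alone, 5 with no filter, 0 with limma-voom, limma-trend and no robust estimation, and 0 to 1 without 1 library. Hypoxia and glucocorticoid targets (1) became 3 with DESeq2, 3 with no filter, 0 with limma-voom, limma-trend and no robust estimation, and 0 to 0 without 1 library. Lipoprotein receptors stayed at 0 in every alternative run. Medians without 1 library each ran from 0.04 to 0.13 for LPL maturation, -0.83 to -0.56 for lipases and apolipoproteins, and -0.34 to -0.17 for fatty acid uptake. Scaling by library size alone shifted the median of all genes to -0.04. The order of levels was the same by CPM per implied length for 9 of 9 members, by construction.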

Other observations

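Counts and TPM together give the transcript length that the quantification implied for each member. Relative to Angptl7, which has 1 annotated transcript, the implied length of Vldlr was 1.92 to 2.03 over the 4 libraries, that of Lpl 1.62 to 1.69, that of Cd36 1.66 to 1.67 and that of Angptl2 1.58 in each. That of Angptl1 ranged from 1.05 to 1.16, with both extremes in wild type, and those of Angptl4 and Lmf1 were 0.93 to 0.947 and 0.811 to 0.846.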
